A study of Mus musculus with 12 samples.

Results

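The genes described here are 10 core and output genes of the circadian clock, Arntl, Clock, Npas2, Per1, Per2, Per3, Cry1, Nr1d1, Nr1d2 and Dbp, measured in mouse kidney. They were taken by gene symbol from a table of 35275 genes, each had a single row, and all 10 passed the filter on weakly expressed genes in every comparison. The kidneys came from 12 C57BL/6J mice aged 6 months, in 3 groups of 4 mice with 2 females and 2 males each. WT mice were the controls. RC/RC mice (genotype Pkd1RC/RC) carried the RC allele of Pkd1 on both chromosomes, a hypomorphic missense change knocked in at the gene's own locus, and are a model of slowly progressing polycystic kidney disease. RC/RC:Casp1KO mice (genotype Pkd1RC/RC-Casp1KO) carried the same Pkd1 alleles together with a homozygous TALEN-made germline deletion in Casp1, called Del3, which removes the codon of the active-site cysteine of Caspase-1. Both cystic groups therefore shared the RC alleles, the knockout was global and came from 1 deletion, and a Casp1 knockout on a WT background was not analysed here.

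In the clock of mammalian cells, the protein of Arntl (BMAL1) pairs with CLOCK or its relative NPAS2 and switches on the Per and Cry genes, Nr1d1, Nr1d2 and Dbp through E-box sequences. PER and CRY proteins then repress the pair that made them, while the REV-ERB receptors encoded by Nr1d1 and Nr1d2 repress Arntl, so that Arntl mRNA peaks at the opposite time of day from Dbp and Nr1d1 mRNA. The kidney clock is known for its part in the daily rhythms of sodium and water excretion and of blood pressure. The hour at which each mouse was killed is not given in the sources used here, so hour of collection and group cannot be told apart in any result below.

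Stretches of 3 promoters are shown, those of Cry1, Per1 and Per3. These members held a clock motif in the 250 bases before a listed start of transcription, and their levels are central below. Capitals mark the motif, an E-box (CACGTG) in Per1 and Cry1 and D-boxes (TTATGTAA) in Per3, read 5′ to 3′ on the gene's strand, and the sequences are those of RefSeq on GRCm38.p6. The Per1 stretch is chr11:69098758-69098813 (plus strand), the Cry1 stretch chr10:85185084-85185139 (minus strand) and the Per3 stretch chr4:151044791-151044895 (minus strand).
Per1: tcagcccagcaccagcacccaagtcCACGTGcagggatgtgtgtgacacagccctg
Cry1: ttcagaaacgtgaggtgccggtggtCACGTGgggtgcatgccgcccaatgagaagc
Per3: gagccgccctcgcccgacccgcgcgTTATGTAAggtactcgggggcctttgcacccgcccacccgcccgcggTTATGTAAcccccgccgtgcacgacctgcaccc
The E-box of Per1 lay 166 bases and that of Cry1 60 bases before the listed start of transcription of its window. The D-boxes of Per3 lay 205 and 158 bases before that of theirs. Per1 had 2 windows, and the second (chr11:69099902-69100201) held none of the motifs. The Per1 stretch lies inside the span of Per1 in the table of counts (chr11:69095217-69109960). D-boxes are the sites at which DBP, TEF and HLF activate genes and NFIL3 represses them. A window was listed for 9 of the 10 members (13 windows in all), and none was listed for Per2. On both strands, CACGTG was in 2 of the 13 windows of members (2 members) and in 6.02% of 32851 mouse promoter windows of the same length. TTATGTAA or TTACGTAA was in 1 of the 13 windows of members and in 0.931% of all windows. The core of the element bound by REV-ERB receptors (TAGGTCA or TGGGTCA) was in the window of no member and in 5.38% of all windows. These matches are letters in a window and describe no binding in these kidneys.

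Levels are given as CPM, read counts divided by library size after scaling all 12 libraries with TMM factors, and the mice of a group are called a to d in the order of the table's columns, which carry no sex. The reads counted ranged from 20556335 to 22656309 per WT mouse, from 18019819 to 24284831 per RC/RC mouse and from 18738755 to 24869454 per RC/RC:Casp1KO mouse, and the lowest count of any member in any mouse was 21, for Npas2. As a check of the labels, Casp1 lay at 2.06, 1.29, 1.30 and 1.41 CPM in WT mice a to d. It lay at 3.37, 3.84, 4.26 and 2.62 CPM in RC/RC mice a to d. In RC/RC:Casp1KO mice a to d it lay at 0.385, 0.664, 0.665 and 1.05 CPM, with 10 to 23 reads still counted on it. For RC/RC:Casp1KO against RC/RC the log2 fold change of Casp1 was −2.35 (SE 0.32, edgeR adjusted p = 0.00514). Pkd1, whose RC allele is a missense change, was at 52.9 ± 13.4 CPM in WT, 55.3 ± 9.70 in RC/RC and 71.4 ± 12.2 in RC/RC:Casp1KO kidneys (SD, n = 4 each) and passed no edgeR test, and so checks nothing. Markers of kidney tubules were abundant in every library, with the 6 proximal tubule genes, led by the phosphate transporter Slc34a1, summing to 3687 CPM or more. Within the RC/RC:Casp1KO group mice a and c stood apart from the others in the clock genes, as described below, and the values that move most without them are given beside the results. The mice of a group were also not equally alike over all genes. The chi-square between libraries over its degrees of freedom was 17.7 for WT a and b and 16.4 for WT c and d, against 89.8 to 127 for the other WT pairs. It was 15.7 for RC/RC:Casp1KO a and b and 31.8 for c and d, against 67.1 to 93.4 for the other pairs of that group. In RC/RC it was 69.7 for a and b and 37.2 for c and d, against 67.6 to 128. Slc22a6, an organic anion transporter gene of the proximal tubule singled out after its values were seen, was at 183 to 401 CPM in mice a and b and at 625 to 1088 CPM in mice c and d of the 3 groups. What sets these pairs apart is not given by the columns, and its part in the results was not tested. In bulk tissue, fewer cells of a type and less RNA per cell cannot be told apart.

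Per length of transcript (FPKM, CPM per kilobase), the WT kidneys ordered the clock genes in 3 tiers. Dbp at 39.5 ± 11.7 FPKM (SD, n = 4), Nr1d2 at 32.5 ± 2.17, Nr1d1 at 28.2 ± 5.48 and Per1 at 22.5 ± 3.04 formed the upper tier, and the mice of each overlapped those of the next. Clock at 7.64 ± 0.594 FPKM, Per2 at 7.10 ± 1.71 and Per3 at 6.13 ± 2.26 followed, with all mice of Clock below all mice of Per1. Arntl at 1.68 ± 0.270 FPKM, Cry1 at 1.44 ± 0.642 and Npas2 at 0.684 ± 0.297 were the lowest. Cry1 overlapped both of the others, and all mice of Npas2 were below all mice of Arntl. In RC/RC kidneys Dbp, at 74.99 ± 4.83 FPKM, no longer overlapped Nr1d2 (33.9 ± 4.52), and Cry1, at 4.31 ± 1.47 FPKM, lay above Arntl (0.648 ± 0.151) in every mouse. In RC/RC:Casp1KO kidneys Per3 (13.9 ± 3.59 FPKM) came before Per2 (12.7 ± 6.17) and Clock (6.67 ± 0.753), and its mice were all above those of Clock.

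**Figure D1:**
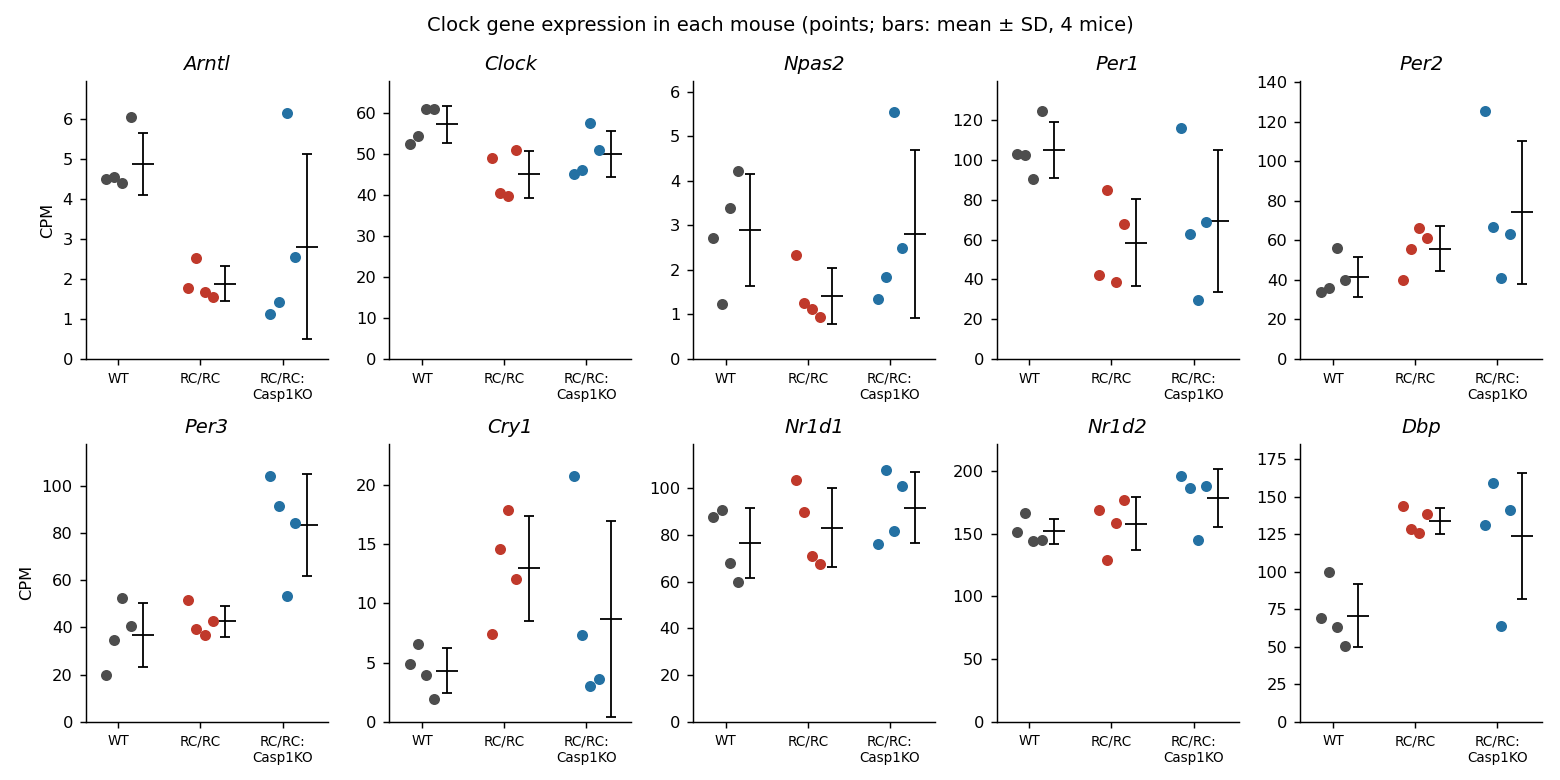
Expression of each clock gene in CPM (vertical axis, from 0, scaled separately for each gene) in the 4 mice of each group (points, a to d from left to right), with the mean ± SD beside them. Arntl lies between 1.55 and 2.52 CPM in RC/RC mice against 4.39 to 6.04 CPM in WT mice, and the RC/RC:Casp1KO mice span 1.12 to 6.15 CPM.

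The first comparison, RC/RC against WT, asks how the cystic kidney differs from the normal one. Arntl fell and Cry1 and Dbp rose, while Clock, Npas2 and Per1 had lower means and Per2, Per3, Nr1d1 and Nr1d2 higher means without passing the test. With edgeR's quasi-likelihood test and Benjamini-Hochberg adjustment over all genes, 3 of the 10 members had an adjusted p under 0.05, beside 12.9% of the 15243 genes tested. Of all genes 1487 (9.76%) were called higher and 484 (3.18%) lower, a split that was 1634 to 263 when libraries were scaled by size alone. At an unadjusted p under 0.05 the count was 6 of 10 members and 4457 of all genes. The median log2 fold change was 0.08 over the members and −0.02 over all genes tested.

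Of the activators, Arntl was at 4.50, 4.55, 4.39 and 6.04 CPM in WT mice a to d and at 1.78, 2.52, 1.67 and 1.55 CPM in RC/RC mice a to d. Every RC/RC mouse was below every WT mouse, and among the WT mice d stood above the other 3. The log2 fold change was −1.38 (SE 0.23, edgeR adjusted p = 0.00555), which is 2.60-fold lower. It passed in each of the 8 fits that left out 1 mouse and in 6 of 7 other ways of processing the counts, missing the threshold in the fit of all 12 libraries (adjusted p = 0.0516). Clock was at 52.4, 54.3, 60.9 and 60.9 CPM in WT and at 48.8, 40.4, 39.8 and 50.9 CPM in RC/RC mice. The groups did not overlap, but the mean difference was small and its log2 fold change of −0.35 (SE 0.12, adjusted p = 0.0784) missed the threshold, which it passed with DESeq2 (0.0460) and without RC/RC mouse d (0.0466). Npas2, which can stand in for Clock as partner of BMAL1, was at 2.73, 1.24, 3.40 and 4.22 CPM in WT and at 2.33, 1.26, 1.13 and 0.945 CPM in RC/RC mice. WT mouse b lay among the RC/RC mice, so the groups overlapped, and the log2 fold change of −1.03 (SE 0.42, adjusted p = 0.137) did not pass.

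Of the repressors, Cry1 was at 4.88, 6.56, 3.95 and 1.92 CPM in WT and at 7.40, 14.6, 17.9 and 12.03 CPM in RC/RC mice. All RC/RC mice were higher than all WT mice, with RC/RC mouse a closest to them. The log2 fold change was 1.58 (SE 0.37, adjusted p = 0.0222), or 2.99-fold, and the adjusted p rose above the threshold without WT c, RC/RC b or RC/RC c, to 0.0544, 0.0618 and 0.0668. It passed in 6 of the 7 other ways of processing the counts and missed in the fit of all 12 libraries (0.0732). Per1, which besides its E-boxes answers to glucocorticoids, was at 103, 102, 90.6 and 125 CPM in WT and at 42.4, 85.0, 38.7 and 67.9 CPM in RC/RC mice. The groups did not overlap, the RC/RC mice were spread widely, and the log2 fold change of −0.85 (SE 0.25, adjusted p = 0.0518) fell just short of the threshold. It passed with DESeq2 (adjusted p = 0.00902), with all genes of at least 1 count (0.0414) and without RC/RC mouse b (0.0187).

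The other Per genes differed less. Per2 was at 33.8, 36.0, 55.9 and 40.0 CPM in WT and at 40.0, 55.6, 66.1 and 61.2 CPM in RC/RC mice, and WT mouse c lay among the RC/RC mice (log2 fold change 0.42, SE 0.20, adjusted p = 0.199). Per3 was at 19.8, 34.6, 52.4 and 40.4 CPM in WT and at 51.7, 39.2, 36.9 and 42.6 CPM in RC/RC mice. The RC/RC mice fell inside the WT range, and the log2 fold change of 0.20 (SE 0.26, adjusted p = 0.633) changed sign without WT mouse a (−0.01).

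Nr1d1, the gene of REV-ERBα, was at 87.7, 90.6, 68.0 and 60.1 CPM in WT and at 104, 90.0, 70.9 and 67.6 CPM in RC/RC mice (log2 fold change 0.11, SE 0.18, adjusted p = 0.71). Nr1d2, the gene of REV-ERBβ, was at 151, 166, 144 and 145 CPM in WT and at 169, 129, 158 and 177 CPM in RC/RC mice (log2 fold change 0.05, SE 0.12, adjusted p = 0.811). Both groups overlapped for both receptors. Nr1d1 shares 1075 bases at its end with Thra on the opposite strand (chr11:98767932-98769006, mm10), and without a stated strand setting the reads of the pair cannot be told apart there. Thra, the gene of a thyroid hormone receptor, averaged 62.3, 59.6 and 63.3 CPM in WT, RC/RC and RC/RC:Casp1KO kidneys.

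Dbp, the output gene whose protein acts on D-boxes, was at 69.4, 99.9, 63.3 and 50.4 CPM in WT and at 144, 128, 126 and 139 CPM in RC/RC mice. The RC/RC mice were close together and all above the highest WT mouse, b. The log2 fold change was 0.92 (SE 0.19, adjusted p = 0.0122), or 1.89-fold, and it passed in all 8 fits without 1 mouse and in all 7 other ways of processing the counts. Dbp shares 689 bases with Sphk2 on the opposite strand (chr7:45709467-45710155, mm10), and Sphk2, a sphingosine kinase gene, averaged 48.3 CPM in WT, 35.3 in RC/RC and 33.4 in RC/RC:Casp1KO kidneys. Groups that did not overlap were found for 2 members higher in RC/RC (Cry1 and Dbp) and 3 lower (Arntl, Clock and Per1), beside 12.7% and 6.58% of all genes tested.

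**Figure D2:**
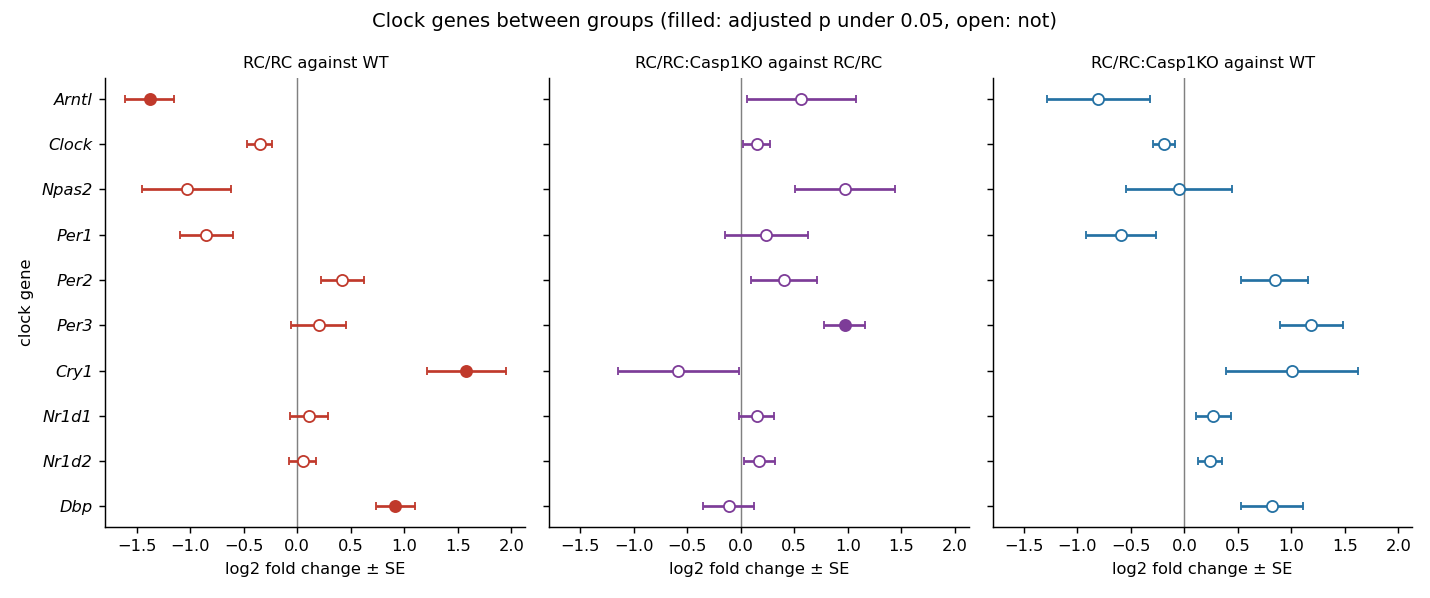
Log2 fold change ± SE (horizontal axis) of each clock gene in the 3 comparisons, from edgeR's fits of 8 mice, with filled points where the adjusted p was under 0.05. Arntl (−1.38), Cry1 (1.58) and Dbp (0.92) are filled for RC/RC against WT, Per3 (0.97) is filled for RC/RC:Casp1KO against RC/RC, and no point is filled for RC/RC:Casp1KO against WT.

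The RNA of cell type markers also differed between the same groups. The 5 fibroblast and pericyte markers, led by the collagen gene Col3a1, summed to 226, 158, 185 and 223 CPM in WT mice, to 897, 1422, 800 and 608 CPM in RC/RC mice and to 251, 359, 241 and 529 CPM in RC/RC:Casp1KO mice. All 5 were called higher in RC/RC than in WT. Of the 5 macrophage markers measured, led by Csf1r, 4 were called higher, and their sums were 132, 117, 125 and 115 CPM in WT mice, 328, 275, 246 and 229 CPM in RC/RC mice and 196, 178, 137 and 266 CPM in RC/RC:Casp1KO mice. T cell markers, led by Cd4 (5 of 6 called higher), summed to 6.79, 4.16, 4.14 and 3.89 CPM in WT mice, 14.5, 22.8, 16.8 and 9.66 CPM in RC/RC mice and 6.70, 8.35, 8.75 and 18.9 CPM in RC/RC:Casp1KO mice. B cell markers, led by Cd79a (3 of 3 called higher), summed to 1.41 to 3.05 CPM, 5.45 to 8.10 CPM and 2.50 to 5.23 CPM in the same order of groups. Of the 4 markers of the distal convoluted tubule, led by Slc12a3, 3 were called lower, with sums of 1708, 1615, 1054 and 1658 CPM in WT mice, 551, 237, 236 and 451 CPM in RC/RC mice and 1133, 1010, 458 and 708 CPM in RC/RC:Casp1KO mice. Proximal tubule markers (2 of 6 called lower) summed to 8158, 9267, 11569 and 12745 CPM in WT mice, 5422, 3687, 6253 and 9138 CPM in RC/RC mice and 10093, 9588, 11989 and 10029 CPM in RC/RC:Casp1KO mice. Of the markers of thick ascending limb, collecting duct, intercalated cells, podocytes and endothelium, only Nphs1 of the podocyte was called. It was lower in RC/RC than in WT, and none of these was called in the other comparisons. Collecting duct principal cell markers, led by Aqp2, summed to 431, 583, 535 and 277 CPM in WT mice. RC/RC mice were all higher, at 625, 935, 1047 and 711 CPM, and RC/RC:Casp1KO mice lay at 712, 597, 644 and 519 CPM. The 3 tested had an unadjusted p under 0.05 in RC/RC against WT, beside 4457 of 15243 genes, and none was called. No marker of these lists was at 0 in every library, and the part of cell makeup in the clock gene differences was not tested.

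The second comparison, RC/RC:Casp1KO against RC/RC, asks what the loss of Casp1 changed in the cystic kidney, and uses the same RC/RC mice as the first. Per3 rose, and no other member passed the test. That is 1 of 10 members beside 11.6% of 15428 genes tested, with 1116 of all genes called higher (7.23%) and 681 lower (4.41%), a split that was 814 to 179 with libraries scaled by size alone. No member was called lower, and Per3 was also the only member with an unadjusted p under 0.05, beside 4889 of all genes. With DESeq2, which called 17.3% of 18320 genes, Per3 passed as well and no member was called lower. Of the marker lists, 3 of 5 fibroblast and pericyte, 2 of 5 macrophage and 1 of 3 B cell markers were called lower and 2 of 6 proximal tubule and 1 of 4 distal convoluted tubule markers higher, and their part was not tested.

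Per3, a Per gene that is dispensable for the core loop, was at 104, 91.6, 53.5 and 84.4 CPM in RC/RC:Casp1KO mice a to d. Mouse c was the lowest and only just above the highest RC/RC mouse (51.7 CPM), so that the groups did not overlap. The log2 fold change was 0.97 (SE 0.19, edgeR adjusted p = 0.0184), or 1.96-fold. It passed in all 7 other ways of processing the counts, but in 4 of the 8 fits without 1 mouse, missing narrowly without RC/RC b (0.0501), RC/RC c (0.0611), RC/RC:Casp1KO a (0.0509) or RC/RC:Casp1KO b (0.0588). Without RC/RC:Casp1KO mouse c it was 1.13 (SE 0.13, adjusted p = 0.00733). Groups that did not overlap were found for Per3 alone of the members, beside 11.3% of genes higher and 9.18% lower. The span of Per3 lies inside that of Camta1 on the same strand, and Camta1 averaged 15.7, 11.4 and 14.3 CPM in WT, RC/RC and RC/RC:Casp1KO kidneys.

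The genes that had differed between RC/RC and WT did not pass here. Arntl was at 1.12, 1.42, 6.15 and 2.54 CPM in RC/RC:Casp1KO mice a to d. Mice a and b were below every RC/RC mouse and mouse c above every WT mouse, and the log2 fold change of 0.57 (SE 0.51, adjusted p = 0.472) became −0.16 (SE 0.35, adjusted p = 0.802) without mouse c. Cry1 was at 20.7, 7.30, 2.99 and 3.59 CPM, with mouse a above and mice b, c and d below every RC/RC mouse. Its log2 fold change was −0.58 (SE 0.57, adjusted p = 0.51), and −1.48 (SE 0.40, adjusted p = 0.0723) without mouse a. Without mouse c the Cry1 value was −0.31 (SE 0.54, edgeR adjusted p = 0.738) and without mouse d −0.33 (SE 0.56, edgeR adjusted p = 0.741). Dbp was at 131, 159, 63.6 and 141 CPM, where mice a, b and d were near or above the RC/RC mice and mouse c was in the WT range. Its log2 fold change was −0.11 (SE 0.24, adjusted p = 0.777), and 0.10 (SE 0.12, adjusted p = 0.623) without mouse c.

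The remaining members had log2 fold changes of 0.15 (Clock, SE 0.12), 0.97 (Npas2, SE 0.47), 0.24 (Per1, SE 0.39), 0.40 (Per2, SE 0.31), 0.15 (Nr1d1, SE 0.16) and 0.17 (Nr1d2, SE 0.14), with edgeR adjusted p from 0.187 to 0.704. Without RC/RC:Casp1KO mouse a, Per2 was at 0.03 (SE 0.22) and Per1 at −0.12 (SE 0.36). Without mouse c, Npas2 was at 0.42 (SE 0.38), Per1 at 0.49 (SE 0.32) and Clock at 0.07 (SE 0.13). Clock was at 45.0, 46.2, 57.4 and 51.0 CPM and Npas2 at 1.35, 1.85, 5.54 and 2.50 CPM in RC/RC:Casp1KO mice a to d. In both, mouse c was the highest and mouse a the lowest, and both groups overlapped RC/RC. Per1 was at 116, 62.8, 29.7 and 69.1 CPM and Per2 at 125, 66.7, 41.1 and 63.4 CPM. For these the order was the opposite, with mouse a highest and mouse c lowest. Nr1d1 was at 76.3, 108, 81.6 and 101 CPM and Nr1d2 at 196, 186, 145 and 188 CPM, a narrower spread.

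The third comparison, RC/RC:Casp1KO against WT, shares its mice with the other 2 comparisons. None of the 10 members was called by edgeR, beside 2.03% of 15346 genes (174 or 1.13% higher and 137 or 0.893% lower, and 281 and 71 with libraries scaled by size alone, which moved the median log2 fold change of all genes from 0.01 to 0.14). At an unadjusted p under 0.05 there were 3 members (Per2, Per3 and Dbp) and 3343 genes, and DESeq2 called 1 member, Per3, beside 7.57% of the 18312 genes it tested. Per3 had the largest difference, with a log2 fold change of 1.19 (SE 0.29, adjusted p = 0.0808), and all RC/RC:Casp1KO mice above the highest WT mouse (52.4 CPM). It was the only member whose groups did not overlap, beside 7.47% of genes higher and 6.22% lower. Per2 had a log2 fold change of 0.84 (SE 0.31, adjusted p = 0.173), Dbp 0.82 (SE 0.29, adjusted p = 0.162) and Arntl −0.80 (SE 0.48, adjusted p = 0.355). Cry1 had 1.01 (SE 0.62), Per1 −0.59 (SE 0.33), Nr1d1 0.27 (SE 0.16), Nr1d2 0.24 (SE 0.11), Clock −0.19 (SE 0.10) and Npas2 −0.05 (SE 0.49), with adjusted p from 0.246 to 0.963. Without RC/RC:Casp1KO mouse a, Cry1 was at 0.11 (SE 0.45, adjusted p = 0.908), Per2 at 0.47 (SE 0.22), Per1 at −0.95 (SE 0.28) and Arntl at −0.53 (SE 0.44). Of the marker lists, 1 of 5 fibroblast and pericyte markers (Dcn) was called higher and 1 of 4 distal convoluted tubule markers (Calb1) lower. Cd68, Csf1r and Mrc1 of the macrophage list were higher in every RC/RC:Casp1KO mouse than in every WT mouse, without being called. C1qa (18.5 to 60.7 CPM against 17.6 to 30.1 CPM in WT) and C1qb of that list overlapped WT. Of the other lists, Col3a1, Dcn, Aqp3 and Cd8a were also higher in every RC/RC:Casp1KO mouse, and Slc5a2 and Calb1 were lower in every one. The part of these markers was not tested.

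The count of 0 members rests on RC/RC:Casp1KO mouse c. Without it Arntl was lower than in WT (log2 fold change −1.51, SE 0.32, adjusted p = 0.0476), and Dbp (1.04, SE 0.21, adjusted p = 0.0448) and Per3 (1.35, SE 0.28, adjusted p = 0.0470) were higher by the same test. The number of all genes called rose from 311 to 547, or 3.50%, in that fit. Leaving out any other single mouse called no member.

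**Figure D3:**
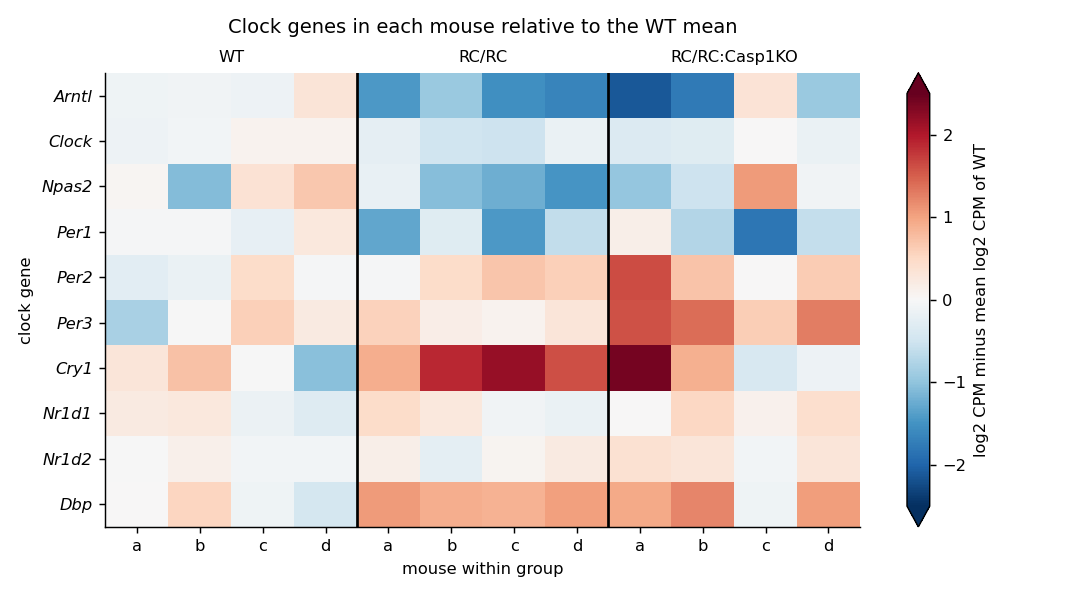
Log2 CPM of each clock gene (rows) in each mouse (columns a to d of the 3 groups) minus the mean of the WT mice, in color (blue below 0, red above). The Arntl row is blue in all RC/RC mice, the Dbp row is red in them, and RC/RC:Casp1KO mice a and c differ from each other in most rows.

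Within the RC/RC:Casp1KO group, mice a and c lay at opposite ends for most of the clock genes. Mouse a had the highest Per1, Per2, Per3, Cry1 and Nr1d2 of its group and the lowest Arntl, Clock, Npas2 and Nr1d1. Mouse c had the highest Arntl, Clock and Npas2 and the lowest Per1, Per2, Per3, Cry1, Nr1d2 and Dbp. Each was thus the extreme mouse of the group for 9 of the 10 members, against 2 for mouse b and 0 for mouse d, and 3 to 6 for the mice of the other groups. Mouse c was inside the range of the WT mice for 6 members and inside that of the RC/RC mice for 3, while mice a, b and d were inside the WT range for 3, 1 and 2 members and inside the RC/RC range for 4, 3 and 4. Within the group, mouse c had the fewest reads (18738755), the largest mitochondrial share (10.4% of reads, against 7.78% to 9.55%), the lowest macrophage marker sum (137 CPM) and the lowest sum for the distal convoluted tubule (458 CPM). Mouse a had the most reads (24869454) and the smallest mitochondrial share (7.78%). The part of sex, which the columns do not give, of depth and of tissue makeup in these differences was not tested.

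Arntl, Npas2, Per1, Per2, Cry1 and Dbp had a larger spread among the RC/RC:Casp1KO mice than among the mice of either other group, a difference in spread that was not tested. The SD of log2 CPM over the 4 RC/RC:Casp1KO mice was 1.25 for Cry1, 1.05 for Arntl, 0.845 for Npas2, 0.810 for Per1, 0.662 for Per2 and 0.598 for Dbp. The median SD of the 14163 genes averaging at least 1 CPM was 0.196 in that group, and these 6 members lay above 91.6% to 98.6% of those genes. Per3 (0.417) lay above 82.9%, Nr1d1 (0.240) above 60.8%, Nr1d2 (0.199) above 50.7% and Clock (0.159) above 38.7%. In WT the SD of Npas2 (0.735) and Cry1 (0.734) lay above 93.7% of genes and that of Per3 (0.592) above 90.0%, whereas Arntl (0.213) was near the median of 0.211. In RC/RC the SD of Dbp was 0.0926, above 7.3% of genes, and that of Per1 (0.541) was above 88.5%. The members of lowest level, Npas2, Arntl and Cry1, rest on 21 to 539 counts per mouse, and the part of counting error in their SD was not tested.

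**Figure D4:**
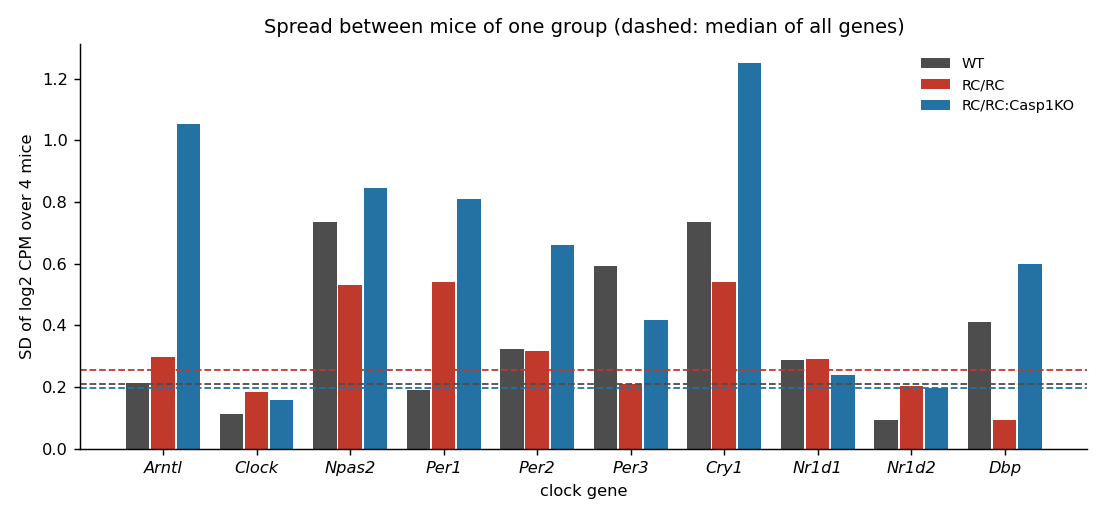
SD of log2 CPM over the 4 mice of a group (vertical axis, from 0) for each clock gene, with dashed lines at the median SD of all 14163 genes averaging at least 1 CPM (0.211 in WT, 0.255 in RC/RC and 0.196 in RC/RC:Casp1KO). Bars of RC/RC:Casp1KO reach 1.25 for Cry1 and 1.05 for Arntl, and those of Clock and Nr1d2 stay near or under the lines.

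Across the 12 mice, the members were ordered against Arntl, the activator whose peak is opposite in phase to that of Dbp. The log2 CPM of Dbp fell as that of Arntl rose (Pearson r = −0.886, permutation p = 0.00013, adjusted over the 9 pairs 0.00117, and Spearman rho = −0.755, adjusted permutation p = 0.0189). Cry1 (r = −0.805, adjusted permutation p = 0.0105), Per2 (r = −0.751, 0.0111) and Nr1d2 (r = −0.655, 0.0354) also ran against Arntl, with rho of −0.818, −0.741 and −0.629. Clock (r = 0.745, adjusted permutation p = 0.0149) and Npas2 (r = 0.710, 0.0214) ran with Arntl, with rho of 0.776 and 0.643. With libraries scaled by size alone, Clock no longer passed (r = 0.585, adjusted permutation p = 0.0662). Per3 (r = −0.509), Nr1d1 (r = −0.250) and Per1 (r = 0.132) did not pass, with adjusted permutation p of 0.118, 0.477 and 0.680 and rho of −0.406, −0.161 and 0.154.

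These relations rest in part on the differences between groups and on WT mouse d and RC/RC:Casp1KO mouse c, the mice farthest from the median of Arntl. Without these 2 mice, r with Dbp was −0.815 (adjusted permutation p = 0.0356), while Per2 (−0.730), Cry1 (−0.682), Clock (0.625), Nr1d2 (−0.571) and Npas2 (0.481) no longer passed, with adjusted permutation p from 0.0527 to 0.200. As deviations from the group means, pooled over the 3 groups, r was −0.753 for Dbp, −0.775 for Nr1d2, −0.722 for Per2, −0.718 for Cry1, 0.716 for Npas2 and 0.497 for Clock. None of the 9 passed after adjustment in an exact permutation within groups (adjusted p from 0.0671 to 0.866). Per1, with r = 0.132 over all mice, had r = −0.587 in the pooled deviations, but it ran against Arntl among the RC/RC:Casp1KO mice and with it among the WT and the RC/RC mice. The RC/RC mice also went against the pooled sign for Clock and Cry1, and 4 mice are too few for an r within 1 group. All values of a mouse come from 1 library and share its scaling.

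**Figure D5:**
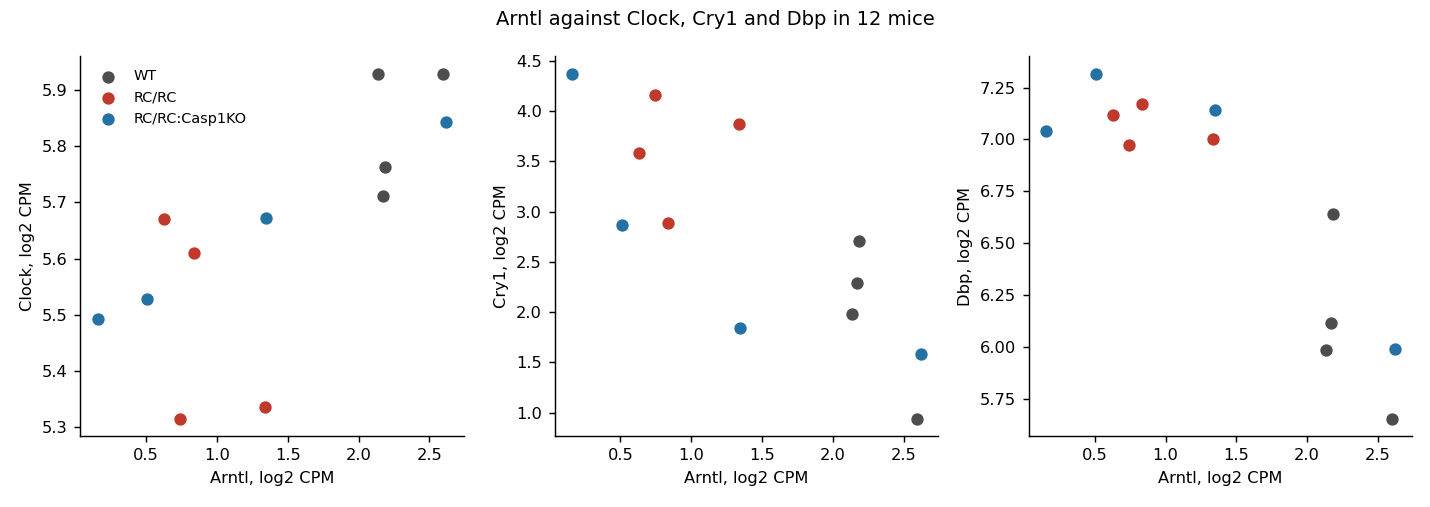
Log2 CPM of Clock, Cry1 and Dbp (vertical axes) against log2 CPM of Arntl (horizontal axes) in the 12 mice, colored by group. Clock rises with Arntl (r = 0.745) and Cry1 (r = −0.805) and Dbp (r = −0.886) fall. RC/RC:Casp1KO mouse c is farthest to the right, just beyond the WT mouse of highest Arntl.

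Other clock and clock-modifying genes were read from the same fits. Of 22 genes on that list, 3 were called higher in RC/RC than in WT and none lower, beside 9.76% and 3.18% of all genes, with a median log2 fold change of −0.02, as for all genes, and 2 of the 3 are described. Cry2, a repressor like Cry1, was at 22.6, 24.4, 21.4 and 19.4 CPM in WT and at 33.0, 25.5, 32.7 and 30.5 CPM in RC/RC mice (log2 fold change 0.46, SE 0.12, adjusted p = 0.0292). Timeless, which also acts at replication forks, was at 5.55, 4.45, 4.34 and 4.17 CPM in WT and at 8.37, 12.3, 9.23 and 7.43 CPM in RC/RC mice (log2 fold change 1.00, SE 0.20, adjusted p = 0.0107). In both genes the RC/RC mice were all above the WT mice. Cry2 passed in 3 of the 8 fits without 1 mouse and Timeless in all 8.

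None of the 22 was called by edgeR in RC/RC:Casp1KO against RC/RC, beside 11.6% of all genes. There 3 had an unadjusted p under 0.05, as had 4889 of the 15428 genes tested, and DESeq2 called 1, Tef (adjusted p = 0.0468), beside 17.3% of all genes. Against WT, Cry2 (log2 fold change 0.81, SE 0.17, adjusted p = 0.0485) and Timeless (0.80, SE 0.16, adjusted p = 0.0449) were called higher in RC/RC:Casp1KO kidneys, at 46.9, 42.8, 25.98 and 37.9 CPM and at 7.12, 8.68, 7.15 and 9.09 CPM in mice a to d, beside 1.13% of all genes called higher. Each passed in 1 of the 8 fits without 1 mouse. In Cry2, as in Cry1 and the Per genes, mouse a was the highest and mouse c the lowest of the group.

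A list of 20 genes known to follow the clock or to cycle in kidney had 18 members tested, and Nr1i3 and Avpr2 were too weakly expressed. In RC/RC against WT, 4 were called higher and 2 lower, beside 9.76% and 3.18% of all genes. Those higher were Tspan4 (log2 fold change 0.97, adjusted p = 0.00294), Edn1 (1.58, 0.00303), Pparg (1.96, 0.0331) and Klf10 (0.79, 0.0351), of which Edn1 encodes endothelin-1, a regulator of sodium excretion. Pparg passed in 5 and Klf10 in 3 of the 8 fits without 1 mouse, and Tspan4 and Edn1 in all 8. Those lower were Ppara (−0.90, 0.0130), a regulator of fatty acid oxidation in the proximal tubule, and Sgk1 (−1.22, 0.00569), a kinase that raises sodium transport. In RC/RC:Casp1KO against RC/RC, Ppara was higher (0.66, 0.0421) and Tspan4 (−0.65, 0.0480) and Edn1 (−1.25, 0.0370) were lower, beside 7.23% of all genes called higher and 4.41% lower. Ppara and Edn1 passed in 3 of the 8 fits without 1 mouse and Tspan4 in 2, and Tspan4 passed in 2 of the 7 other ways of processing the counts. Against WT, Alas1 (−0.99, 0.0308), the first enzyme of heme synthesis, and Klf9 (−0.73, 0.0328) were lower in RC/RC:Casp1KO kidneys, beside 0.893% of all genes, and each passed in 3 of the 8 fits. The median log2 fold changes of the 18 genes were −0.22, −0.10 and −0.16 in the 3 comparisons, beside −0.02, −0.03 and 0.01 over all genes.

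Per1 is also a target of the glucocorticoid receptor, and 12 such genes, Per1 included, were set beside it. In RC/RC against WT, Sgk1, Errfi1 (log2 fold change −1.14, adjusted p = 0.0209) and Dusp1 (−1.04, 0.0429) were called lower and none higher, beside 3.18% of all genes called lower, with a median of −0.65 against −0.02 over all genes. Dusp1 passed in 1 and Errfi1 in 5 of the 8 fits without 1 mouse. In RC/RC:Casp1KO against RC/RC, Mt2 (−0.92, 0.0283), Mt1 (−0.78, 0.0403) and Cdkn1a (−1.15, 0.0446) were lower, beside 4.41% of all genes, with a median of −0.44 against −0.03. Mt2 passed in 4, Mt1 in 2 and Cdkn1a in 3 of the 8 fits. Against WT all 12 had negative log2 fold changes in RC/RC:Casp1KO kidneys, with a median of −0.92 against 0.01 over all genes. Errfi1 (−1.33, 0.0144) and Klf9 passed, beside 0.893% of all genes called lower, and 10 had an unadjusted p under 0.05, as had 3343 of the 15346 genes tested. Errfi1 passed in 7 of the 8 fits. Sgk1, Klf9 and Tsc22d3 are also on the list of rhythmic genes.

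Body temperature is another signal that sets clocks in tissues, and 8 genes that answer to it were read in the same fits. In each comparison 1 of the 8 was called, beside 12.9%, 11.6% and 2.03% of all genes. Rbm3, a cold-induced RNA-binding protein gene, was called higher in RC/RC than in WT (log2 fold change 0.60, SE 0.17, adjusted p = 0.0497), and passed in 1 of the 8 fits without 1 mouse. In that comparison the other cold-induced gene, Cirbp, had a log2 fold change of −0.21 (SE 0.29) and the heat shock gene Hspa1a 1.46 (SE 0.56), neither called. Cirbp was called higher in RC/RC:Casp1KO than in RC/RC (0.61, SE 0.15, adjusted p = 0.0367), at 38.1, 54.6, 52.8 and 60.8 CPM against 39.9, 29.0, 32.9 and 33.3 CPM, and passed in 2 of the 8. Rbm3 had 0.02 (SE 0.16) there, and the 6 heat shock genes had log2 fold changes from −1.61 to −0.53, none called. The heat shock gene Hsp90aa1 was called lower in RC/RC:Casp1KO than in WT (−0.80, SE 0.12, adjusted p = 0.0168), with all 4 mice at 233 to 325 CPM against 443 to 513 CPM.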

How the data were processed

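RNA from kidney tissue of 12 mice was made into poly(A) libraries and sequenced. The submitters' processing notes name CASAVA 1.8, STAR and the build mm10, and the counting tool, annotation and strand setting are not given in the sources used here. The deposited counts are raw: whole reads per gene and mouse, as the authors counted them. Gene lengths and coordinates are from the same table. The authors' FPKM, group means, fold changes and p-values were not used. Columns of unknown group numbered 0, and columns name a mouse's group but not its sex or replicate number. Each mouse was 1 replicate, since all 18 within-group pairs differed beyond sampling noise (chi-square over its degrees of freedom, 15.7 to 128).

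Each pair of groups was fitted on the 8 libraries with edgeR 4.0.16 (R 4.3.3): TMM, filterByExpr, the quasi-likelihood F test and Benjamini-Hochberg adjustment, threshold 0.05, tested on simulated data beforehand. The SE was taken from the log2 fold change and its F value. Log2 CPM used a prior count of 2. Correlations used 100000 permutations, two-sided, and 13824 exact ones within groups (Python 3.11.15). Alternatives were DESeq2 1.42.0, RLE factors, library size alone, 2 other filters on low counts, a fit of all 12 libraries, limma 3.58.1 on log2(FPKM + 1), and fits that omitted 1 mouse. The clock genes and gene lists were chosen with earlier results of these data known. Named were the members, Casp1, Pkd1, list genes called in at least 1 comparison, genes overlapping a member, and the 5 genes most and least like Arntl and Dbp, of which some results are not reported here. The number of mice limits the precision. Adgre1 and Jchain, on the marker lists, were not analysed here.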

Additional observations from a re-analysis of the deposited data

Results flagged for a closer look

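Arntl in WT mouse d, at 6.04 CPM, stood far above the other 3 WT mice, of which the nearest was at 4.55 CPM and the lowest at 4.39 CPM. The gap made up 0.907 of the group's range, over the 95% limit for 4 samples. Of the 30 combinations of clock gene and group examined, this was the only 1 past its limit, and chance alone passes it in about 1 of 20 groups.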

How the results depend on the processing

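No paired analysis was possible because the columns carry no replicate numbers. Beside 1971, 1797 and 311 genes called in RC/RC against WT, RC/RC:Casp1KO against RC/RC and RC/RC:Casp1KO against WT, DESeq2 called 3027 (16.7% of 18122), 3172 (17.3% of 18320) and 1387 (7.57% of 18312). The second count was 993 with library size alone and 1052 with limma, and the third was 167 with at least 10 counts in every library. Without 1 mouse the counts were 1162 (without WT d) to 2440 (RC/RC d), 438 (RC/RC c) to 2789 (RC/RC a) and 108 (WT d) to 547 (RC/RC:Casp1KO c). Clock genes called lower in RC/RC than in WT were 3 with DESeq2, 2 with all genes of at least 1 count and 0 in the fit of all 12 libraries, where 1 was called higher. The last 2 settings called 8.34% of 23658 and 16.7% of 15875 genes. Against WT, DESeq2 and the fit of all 12 libraries each called 1 higher in RC/RC:Casp1KO, the latter beside 2.27% of 15875 genes. Without 1 mouse, 1 to 2, 0 to 1 and 0 to 2 members were called higher and 1 to 2, 0 to 0 and 0 to 1 lower. Of 210 log2 fold changes of members under the other 7 ways, 201 kept their sign and side of the threshold.

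Signs turned for Npas2 in RC/RC:Casp1KO against WT, to 0.0474 with library size alone and 0.0089 with limma, and without 1 mouse (−0.60 to 0.19). Without 1 mouse the ranges also crossed 0 for Per3 (−0.009 to 0.39), Nr1d1 (−0.0269 to 0.20) and Nr1d2 (−0.0088 to 0.11) in RC/RC against WT, and for Arntl (−0.16 to 0.84), Per1 (−0.12 to 0.51) and Dbp (−0.26 to 0.10) in RC/RC:Casp1KO against RC/RC. The causes were not tested.

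Correlations with Arntl as deviations from group means, pooled over the groups (which differed in sign for Clock, Cry1 and Per1), were 0.497 for Clock, 0.716 for Npas2, −0.722 for Per2, −0.718 for Cry1, −0.775 for Nr1d2, −0.753 for Dbp and −0.587 for Per1. Without the 2 farthest mice they were 0.625 for Clock, 0.481 for Npas2, −0.730 for Per2, −0.682 for Cry1, −0.571 for Nr1d2 and 0.00429 for Nr1d1. Clock gave 0.585 with library size alone and no longer passed (adjusted permutation p = 0.0662). With 4 mice a group, differences of the size seen for Clock or Nr1d2 could miss the threshold.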

Other observations

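Among the 14162 other genes averaging at least 1 CPM, those most like Arntl over the 12 mice by Pearson r of log2 CPM were RP23-8J15.7 (0.92), the mitochondrial gene mt-Nd4l (0.92), Gm12141 (0.88), Gm10222 (0.88) and Ndrg1 (0.88), a stress-responsive gene of differentiated epithelium. Those least like it were Spcs3 (−0.92), a subunit of the signal peptidase, the chemokine receptor gene Ccr1 (−0.90), Dbp (−0.89), Vav2 (−0.88) and Ttc39a (−0.87). Dbp was the only member in either list. Most like Dbp were Kcne1l (0.93), Sorcs2 (0.93), Ccr1 (0.93), Lipg (0.91) and the antigen presentation gene H2-DMb1 (0.91). Among those least like Dbp were Wdtc1 (−0.91), the monocarboxylate transporter gene Slc16a1 (−0.90), Dnm2 (−0.90) and Arhgef10l (−0.89). These values describe 12 mice in 3 groups that differ in level, and carry no test.

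Sgk1 was at 255, 110, 49.9 and 42.5 CPM in RC/RC:Casp1KO mice a to d, against 155 to 296 CPM among WT and 80.5 to 117 CPM among RC/RC mice. Mouse a, which also had the highest Per1 of its group, lay in the WT range, mouse b among the RC/RC mice and mice c and d below them. Fkbp5, another glucocorticoid target, was at 121, 99.7, 144 and 181 CPM in WT mice, 31.8, 62.2, 81.8 and 180 CPM in RC/RC mice and 39.7, 26.1, 43.9 and 81.4 CPM in RC/RC:Casp1KO mice. All RC/RC:Casp1KO mice were below all WT mice, without passing the test (log2 fold change −1.51, SE 0.34, edgeR adjusted p = 0.0578). Both genes were singled out after their values were seen.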
